A study of Homo sapiens with 4 samples.

Results

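The comparison described here sets LAPC-4 cells given 1 nM R1881 against untreated LAPC-4 cells, across the human microRNAs (miRNAs) that could be measured on either array. A miRNA was a member where its perfectly matched probe read above the 95th percentile of the probes carrying 2 mismatches, on the 1 nM array or on the untreated array. Of 455 human miRNA probes, 134 were members, and 111 of them were above the limit on both arrays. LAPC-4 is a human prostate cancer line that expresses the androgen receptor, and R1881 is a synthetic androgen that activates this receptor. Cells of both groups first spent 24 hours without androgen, in medium whose 10% serum had been stripped of steroids with charcoal. The tested cells then received 1 nM R1881 and the untreated cells received 0 nM. How long R1881 was present is not stated clearly in the labels. Total RNA was labelled with Cy3 and hybridised to a custom array of DNA oligonucleotides, with 1 array a dose. Arrays of cells given 0.1 and 10 nM complete the series. A single line in culture represents prostate cancer here, and no array was repeated.

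miRNAs are short RNAs cut from hairpin precursors by the enzymes Drosha and Dicer. Loaded into an Argonaute protein, they pair with messenger RNAs mainly through the seed, bases 2 to 8 from the 5′ end, and lower the stability or translation of the targets. Many lie in clusters that are transcribed together, and a family shares its seed while its members are copied from different genes. The androgen receptor is a transcription factor that binds DNA after it binds hormone, and miR-21, miR-148a and miR-27a are among the miRNAs described as androgen-raised in prostate cancer cells, while miR-99a, miR-100, let-7c and miR-221 with miR-222 are described as androgen-lowered.

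The sequences below belong to some of the miRNAs that carried the largest ratios and to the near-identical relatives they are compared with. They are the mature human sequences of RefSeq (GRCh38.p14), written 5′ to 3′, with the seed in capitals. Of the 134 members, 117 matched a RefSeq mature sequence by name. Among those that did not were miR-594, which had the highest ratio, and miR-575.
miR-125b: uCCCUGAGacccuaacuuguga
miR-99a: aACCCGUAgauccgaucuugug
miR-100: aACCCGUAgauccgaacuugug
miR-192: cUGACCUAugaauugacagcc
let-7a: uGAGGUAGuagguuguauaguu
let-7f: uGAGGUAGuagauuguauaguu
miR-98: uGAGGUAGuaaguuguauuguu
miR-19b: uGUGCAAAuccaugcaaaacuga
miR-19a: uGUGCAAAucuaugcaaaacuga
miR-29a: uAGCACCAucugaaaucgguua
miR-29b: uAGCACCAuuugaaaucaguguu
miR-29c: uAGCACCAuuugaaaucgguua
miR-21: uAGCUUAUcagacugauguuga
miR-16: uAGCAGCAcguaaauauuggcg
miR-148a: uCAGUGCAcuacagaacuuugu

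Mature miR-99a lies at chr21:16539101-16539122 on the plus strand, inside the noncoding gene MIR99AHG. Mature miR-125b is made from 2 places, chr21:16590253-16590274 on the plus strand in MIR99AHG and chr11:122099809-122099830 on the minus strand in MIR100HG. Mature miR-100 lies at chr11:122152275-122152296 on the minus strand, also in MIR100HG. Mature miR-192 lies at chr11:64891203-64891223 on the minus strand. Mature miR-21 lies at chr17:59841273-59841294 on the plus strand, within VMP1. Mature miR-29c lies at chr1:207801865-207801886 on the minus strand, within the noncoding gene MIR29B2CHG. Mature miR-148a lies at chr7:25949922-25949943 on the minus strand. Mature miR-98 lies at chrX:53556299-53556320 on the minus strand, within HUWE1. Mature miR-16 is made from chr13:50049027-50049048 on the minus strand in DLEU2 and from chr3:160404754-160404775 on the plus strand in SMC4.

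The values are raw mean spot intensities, which still contain the array's background. The limit of detection was 137.35 on the 1 nM array and 117.925 on the untreated array. The limit was exceeded by 5 members on the 1 nM array only and by 18 on the untreated array only, so the higher limit at 1 nM moves with which miRNAs count as detected there. The median member read 208 at 1 nM and 199 in untreated cells, and the median ratio of the members was 0.15 on the log2 scale, or 1.11-fold. All ratios below are log2 of 1 nM over untreated with this shift subtracted, unless stated. A positive ratio therefore means higher at 1 nM than the median member, and without the subtraction 92 members read higher at 1 nM and 42 read lower. A probe's brightness also depends on how well it hybridises, so intensities are compared between arrays for 1 probe and not between miRNAs. With 1 array a side there is no replicate error, no test and no p-value, and the number of arrays limits the precision.

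Most members differed little between the arrays. The SD of the 134 ratios was 0.245, the quartiles were −0.17 and 0.13, and 112 members lay within the fold threshold of the median ratio. The threshold was 0.322 on the log2 scale, a ratio of 5 to 4, and a member at or past it is called higher or lower below. There were 12 higher members, 8.96% of the 134, and 10 lower members, 7.46%. Of these, 9 higher and 9 lower members were above the limit on both arrays. The other called members passed the limit on 1 array only. Their bounds, given below, fall short of the threshold when they include the centring. The split depends on the scaling: there were 26 higher and 4 lower members without centring, 24 and 4 with each array divided by its median over all probes, 14 and 18 with quantile normalization, and 25 and 35 with the mismatch median subtracted. Across 6 other scalings, 11 of the 12 higher members but only 4 of the 10 lower members, miR-125b, miR-99a, miR-192 and miR-663, stayed past the threshold in every one. Of these scalings, no centring and the all-probe median raise every ratio by a constant, 0.146 and 0.122. Those 2 can take calls only from the lower members, so the counts do not compare how stable the directions are. At 1.5-fold there were 2 higher members, miR-594 and miR-568, and 2 lower members, miR-125b and miR-99a, each pair being 1.49%. Just inside the threshold were miR-605 at 0.324 and miR-191 at −0.323, and just outside it were miR-564 at 0.311 and miR-22 at −0.320.

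**Figure D1:**
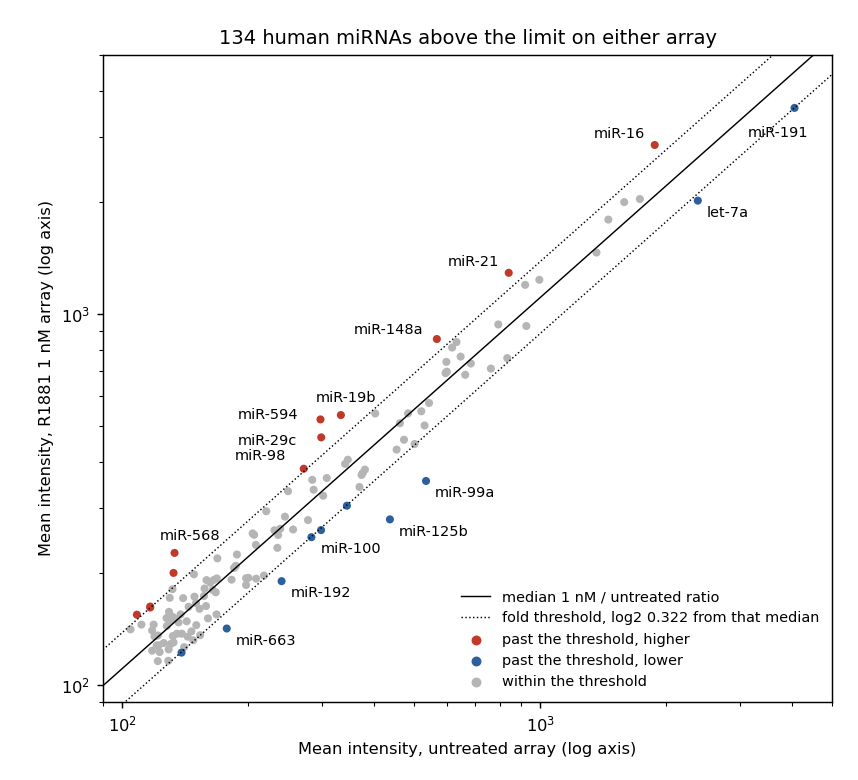
Mean spot intensity of the 134 members on the R1881 1 nM array (vertical, log axis) against the untreated array (horizontal, log axis), 1 point a miRNA and 1 array a side. The solid line is the median ratio and the dotted lines are the fold threshold, 0.322 (log2) from it: 12 points lie above the upper dotted line and 10 below the lower one, with miR-125b and miR-99a farthest below.

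The miR-99, miR-100 and miR-125 miRNAs were all below the median ratio, and held both of the lowest ratios. miR-125b, the human relative of the worm developmental timer lin-4, read 279.5 at 1 nM and 437.25 in untreated cells, a ratio of −0.79. miR-99a, a repressor of the growth kinase mTOR, read 354.75 at 1 nM and 533.5 in untreated cells, a ratio of −0.73. These are the only called members, miR-192 and miR-663 aside, whose raw intensity was lower at 1 nM by the threshold before any centring. miR-100, which shares the seed ACCCGUA with miR-99a and differs from it by the single change A16U, counted from the 5′ end of miR-100, read 250.25 at 1 nM and 283.75 in untreated cells. Its ratio was −0.33. miR-99b read 197.25 at 1 nM and 218.5 in untreated cells, and miR-125a read 380.75 at 1 nM and 381 in untreated cells. Their ratios were −0.29 and −0.15, inside the threshold, and the raw intensity of miR-125a was nearly equal on both arrays. The median of the 5 was −0.33, with 3 of 5 lower and 0 higher, beside 7.46% lower among all members.

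All of these 5 but miR-125b lie within 10 kb of a let-7 gene, in 3 clusters, and the let-7 neighbours were below the median too. Both miR-125b genes lie farther from the let-7 gene of their host. The RefSeq positions place members within 10 kb of each other on the same strand in 25 clusters. Of these, 6 had all members above the median ratio, 10 had all below and 9 were mixed. A miRNA made from several genes is counted in each of its clusters, so the clusters are not separate readings. Among the 10, miR-181a with miR-181b, miR-194 and let-7a each occur more than once, as does miR-29b among the 6. In MIR99AHG, let-7c lies beside miR-99a and had a ratio of −0.19, against −0.73 for its neighbour. In MIR100HG, a let-7a gene lies beside miR-100, and in SPACA6, let-7e at −0.15 lies beside miR-99b and miR-125a. let-7a comes from several other genes as well, so its value cannot be assigned to 1 cluster.

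The 9 members of the let-7 family, which restrains RAS and HMGA2 in differentiated cells, did not move together. let-7a read 2020.25 at 1 nM and 2384 in untreated cells, a ratio of −0.38. let-7b read 304.25 at 1 nM and 345 in untreated cells, a ratio of −0.33. By contrast let-7f read 1236 at 1 nM and 996 in untreated cells, a ratio of 0.17. let-7d read 1796.25 at 1 nM and 1456.5 in untreated cells, a ratio of 0.16. miR-98, a family member on the X chromosome, read 382.75 at 1 nM and 272 in untreated cells, a ratio of 0.35. It lies in HUWE1 beside a let-7f gene, and both were above the median. Over the family 2 of 9 were lower and 1 of 9 was higher, beside 7.46% lower and 8.96% higher among all members. The other 6 lay within the threshold, and the family had a median of −0.08 that turned positive, at 0.07, when the shift was not subtracted. All 9 carry the seed GAGGUAG. let-7f differs from let-7a by G12A alone and miR-98 by G11A and A19U, with positions counted from the 5′ end of let-7a.

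Probes for miRNAs this alike can bind each other's targets, and this was not tested. Over 11 pairs of members that differ by 1 base, the ratios of the pair lay 0.03 to 0.55 apart with a median of 0.19. The 0.55 is the pair let-7a and let-7f. Over 20 pairs with 2 differing bases they lay 0.04 to 0.73 apart, also with a median of 0.19.

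The other lower members came from several families. miR-192, which p53 induces and which is abundant in gut, liver and kidney, read 190.5 at 1 nM and 240.75 in untreated cells, a ratio of −0.48. Its cluster partner miR-194 read 139.5 at 1 nM and 146.5 in untreated cells, a ratio of −0.22. Its seed relative miR-215 read 145 at 1 nM and 150.5 in untreated cells, a ratio of −0.20. Both were below the median but within the threshold, and both lay close to the limit of detection. miR-191 was the brightest member on both arrays, at 3592 at 1 nM and 4061.75 in untreated cells, a ratio of −0.32. Its cluster partner miR-425-5p read 712.5 at 1 nM and 762.5 in untreated cells, a ratio of −0.24. miR-30d read 261.5 at 1 nM and 299.25 in untreated cells, a ratio of −0.34. miR-574, at 446.25 at 1 nM and 501 in untreated cells, fell just short of the fold with −0.31.

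Among the lower members, miR-663 and miR-608 were near background. miR-663 read 142 at 1 nM and 178 in untreated cells, a ratio of −0.47, while its own mismatch probe read 125.5 at 1 nM and 135.5 in untreated cells. miR-608 was above the limit in untreated cells only and was at least 1.12-fold lower at 1 nM. Of the other members above the limit in untreated cells only, miR-22 was at least 1.24-fold lower at 1 nM and miR-361 at least 1.19-fold. miR-181b was at least 1.15-fold and miR-375 at least 1.13-fold lower at 1 nM. These bounds set the untreated intensity against the higher of the probe's own reading and the lowest detected reading at 1 nM, and they include the centring. Without the centring they were 1.12, 1.08, 1.04 and 1.02 in the same order, and 1.01 for miR-608.

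Of the 12 higher members, 5 were among the brighter miRNAs on both arrays and belong to well-studied families. miR-21, which represses the tumour suppressor PDCD4, read 1291 at 1 nM and 841.25 in untreated cells, a ratio of 0.47. miR-16, which represses BCL2 and cyclins, read 2853.5 at 1 nM and 1880.25 in untreated cells, a ratio of 0.46. miR-148a, which is abundant in luminal prostate cells, read 856 at 1 nM and 566.25 in untreated cells, a ratio of 0.45. miR-19b, a member of the miR-17-92 cluster, read 534 at 1 nM and 333.75 in untreated cells, a ratio of 0.53. miR-29c read 465 at 1 nM and 299.5 in untreated cells, a ratio of 0.49. These 5 lay 1.37-fold to 1.45-fold above the median ratio.

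Their families followed to different degrees. All 3 miR-29 members, repressors of collagen and other matrix genes, were above the median. miR-29a read 294 at 1 nM and 221.25 in untreated cells, and miR-29b read 840 at 1 nM and 631 in untreated cells. Both had a ratio near 0.27, inside the threshold after centring. miR-29a and miR-29c differ by C10U, counted from the 5′ end of miR-29a, and lay at 0.26 and 0.49. Of 11 detected members of the miR-17-92 cluster and its paralogs, which drive proliferation, 10 were above the median. The other member, miR-18a, lay at the median. On the human probes only miR-19b was higher by the fold, beside 8.96% higher among all members. Mouse-named probes of miR-20b and miR-106a were past the threshold, with ratios of 0.58 and 0.35, against 0.27 and 0.25 for the human probes. The rat-named miR-20b probe had 0.22. The list's median was 0.09, and the 6 miRNAs with the seed AAAGUGC lay between 0.01 and 0.27. miR-19a, which differs from miR-19b by U11C, read 145.5 at 1 nM and 119 in untreated cells, near the limit, with a ratio of 0.14.

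The relatives of miR-16 did not share its value. miR-15a, made from the same transcript as the chromosome 13 copy of miR-16, read 361.25 at 1 nM and 308.75 in untreated cells, a ratio of 0.08. miR-15b, made beside the chromosome 3 copy, read 373 at 1 nM and 376.5 in untreated cells, a ratio of −0.16. miR-195 and miR-497 had ratios of −0.05 and −0.09, so only miR-16 and miR-15a of the 5 detected members were above the median. The miR-148 family had 2 detected members, and miR-148b had a ratio of 0.07 beside 0.45 for miR-148a.

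Beside miR-98 and the 5 brighter miRNAs above, 6 members were higher, and 5 of them read under 200 in untreated cells. miR-594 had the highest ratio, 0.66, with 519.75 at 1 nM and 298.25 in untreated cells. miR-568 had a ratio of 0.62, with 227 at 1 nM and 133.5 in untreated cells. Its mismatch probe was brighter than the matched probe on both arrays, at 289 at 1 nM and 288 in untreated cells. miR-575 read 200.5 at 1 nM and 132.75 in untreated cells, a ratio of 0.45. miR-326, miR-640 and miR-605 were above the limit at 1 nM only, and were at least 1.19-fold, 1.246-fold and 1.24-fold higher at 1 nM. Without the centring these bounds were 1.31, 1.38 and 1.37 in the same order, past the fold threshold. The mismatch probe of miR-640 read 140.5 at 1 nM and 117 in untreated cells, so it was as bright as the matched probe in untreated cells. miR-629 was at least 1.11-fold higher.

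**Figure D2:**
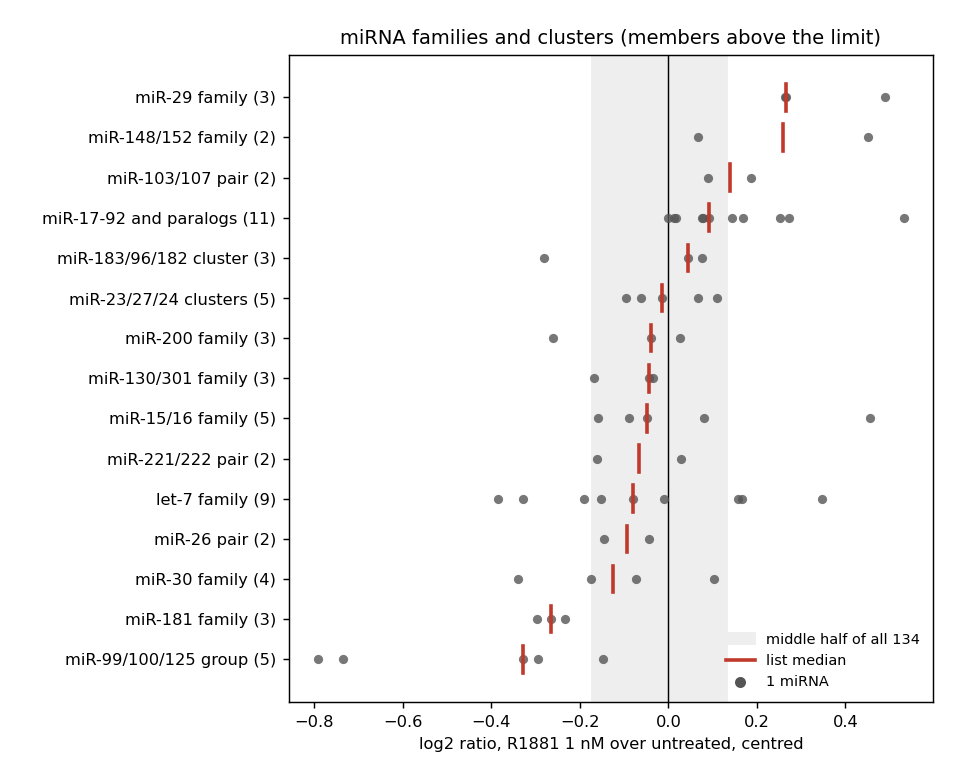
Centred log2 ratios, R1881 1 nM over untreated, of the detected members of each family, 1 point a miRNA, with the family's median as a bar and the quartiles of all members, −0.17 to 0.13, shaded. The miR-29 points lie at 0.26 to 0.49 and the points of miR-99, miR-100 and miR-125 at −0.79 to −0.15, while let-7 spans −0.38 to 0.35.

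Of the other families, miR-181 lay lowest, with its 3 detected members between −0.30 and −0.23 and a median of −0.26, and 0 of them past the threshold. The medians were −0.12 for 4 detected miR-30 members, of which miR-30d was lower, −0.05 for the 5 of the miR-15 and miR-16 family, −0.04 for 3 of the miR-200 family, which keeps epithelial identity by repressing ZEB1 and ZEB2, and −0.04 for 3 of the miR-130 and miR-301 family. They were −0.01 for 5 of the miR-23, miR-27 and miR-24 clusters, 0.04 for 3 of the miR-183, miR-96 and miR-182 cluster, −0.07 for miR-221 with miR-222, 0.26 for the miR-148 family, 0.14 for miR-103 with miR-107 and −0.09 for the miR-26 pair. miR-10a alone of its pair was detected, at −0.11, and 0 of 3 miR-34 members, which are targets of p53, were detected. Of these medians, those of miR-30, miR-15 with miR-16, miR-200, miR-130 with miR-301, miR-23 with its partners, miR-221 with miR-222, miR-26 and miR-10 did not keep a negative sign with every scaling, whereas those of miR-29, miR-17-92, miR-148, miR-181 and the miR-99, miR-100 and miR-125 group kept their sign with all of them. For miR-181 the kept sign is partly set by the choice of members. miR-181a and miR-181b passed the limit in untreated cells only, which favours negative ratios, and only miR-181d passed it on both arrays. Over the members with a sequence, 21 seeds were shared by 60 miRNAs. Of these groups 7 lay all above the median, 8 all below and 6 on both sides.

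The miRNAs recalled as androgen-raised had 9 of 11 detected, of which 6 were above the median, 2 were higher and 0 lower, beside 8.96% higher and 7.46% lower among all members. The 2 were miR-21 and miR-148a, and the list's median was 0.17. miR-22 at −0.32 and miR-141 at −0.26 were at its low end. miR-22 read 136.25 at 1 nM, below the limit, and 153.75 in untreated cells. The 5 recalled as androgen-lowered were all detected, with 4 below the median, 2 lower, 0 higher and a median of −0.19, beside the same shares over all members. The 2 were miR-99a and miR-100. miR-222 read 137.5 at 1 nM and 139 in untreated cells, a ratio of −0.16, and miR-221 read 261.25 at 1 nM and 231.5 in untreated cells, a ratio of 0.03. The 2 lists rest on recall, were written with earlier results of these data known, and are no independent evidence of direction.

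Of the epithelial and luminal markers, 7 of 10 were above the limit at 1 nM and 8 of 10 in untreated cells, the exceptions on both arrays being miR-200a and miR-429. Their summed intensity was 3802 at 1 nM and 3471 in untreated cells. The luminal miRNA miR-375 was dim, at 126.5 at 1 nM and 140.75 in untreated cells. Of the basal markers, miR-221 and miR-222 were detected on both arrays and miR-205 was not, with a summed intensity of 481 at 1 nM and 449 in untreated cells. Blood markers had 0 of 7 above the limit at 1 nM and 1 of 7, miR-155, in untreated cells, with sums of 606 at 1 nM and 610 in untreated cells. Fibroblast and smooth muscle markers had 1 of 5, miR-214, on both arrays, with sums of 560.5 at 1 nM and 506 in untreated cells. Muscle markers had 1 of 4, miR-206, and neural markers 2 of 5, miR-128a and miR-128b, on both arrays. Their sums were 423.5 and 676 at 1 nM, against 395 and 626 in untreated cells. Liver, embryonic stem and placental markers had 0 of 1, 0 of 8 and 0 of 5, with sums of 103.5, 749 and 425 at 1 nM, against 101, 751 and 449 in untreated cells. Undetected probes still read the background, so the sums of the lists with few or no detected members are mostly background. In bulk RNA, fewer cells with a miRNA and less of it per cell cannot be told apart.

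The other doses gave the called members mostly the same direction, but each ratio shares the untreated array, so they are given side by side. At 0.1 nM, 10 of the 134 members were higher by the fold, 7.46%, and 1 was lower, 0.746%. At 10 nM, 24 were higher, 17.9%, and 18 lower, 13.4%. miR-125b had ratios of −0.19 at 0.1 nM, −0.79 at 1 nM and −0.78 at 10 nM. miR-99a had −0.22 at 0.1 nM, −0.73 at 1 nM and −0.66 at 10 nM. In raw intensity these 2 miRNAs read lowest of the 4 arrays at 1 nM. The raw values of miR-125b were 437.25 untreated, 408.25 at 0.1 nM, 279.5 at 1 nM and 317 at 10 nM. miR-16 read 1880.25 untreated, 2666.75 at 0.1 nM, 2853.5 at 1 nM and 3609.5 at 10 nM, so it was higher on each treated array. miR-21 read 841.25 untreated, 1054.5 at 0.1 nM, 1291 at 1 nM and 1539.75 at 10 nM.

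A few members were brightest at 1 nM. miR-98 read 272 untreated, 324.5 at 0.1 nM, 382.75 at 1 nM and 290.5 at 10 nM. Its ratio was 0.16 at 0.1 nM, 0.35 at 1 nM and −0.22 at 10 nM, the sole sign change among the 12 higher members. let-7f read 996 untreated, 1054.25 at 0.1 nM, 1236 at 1 nM and 1060.5 at 10 nM. miR-19b read 333.75 untreated, 448.75 at 0.1 nM, 534 at 1 nM and 472.75 at 10 nM. Among the treated arrays, each centred on its own members, the 1 nM value lay between the other doses for 54 of 134 members, was the lowest for 24 and the highest for 56. Without centring the order turned, with 59 between, 52 lowest and 20 highest. Of the 12 higher members, 7 were higher by the fold at 0.1 nM and 8 at 10 nM. Of the 10 lower members, 1 was lower by the fold at 0.1 nM and 7 at 10 nM.

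**Figure D3:**
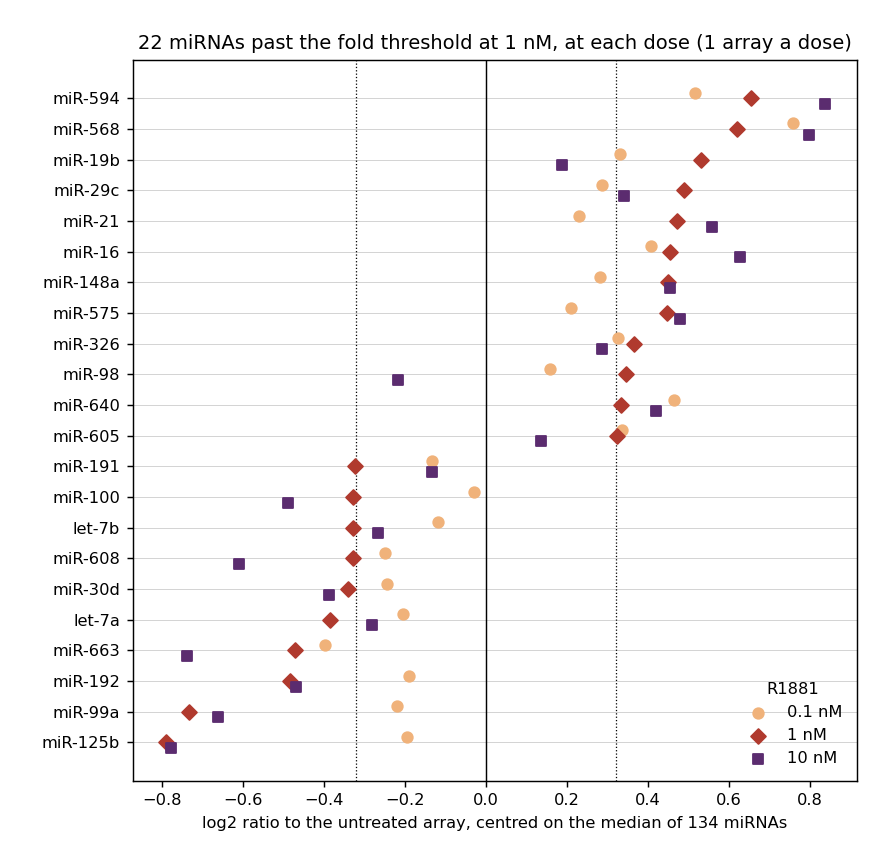
Centred log2 ratios over the untreated array of the 22 called members at 0.1, 1 and 10 nM R1881, 1 array a dose. All ratios share the untreated array. miR-125b and miR-99a lie near −0.2 at 0.1 nM and below −0.6 at 1 and 10 nM, and miR-98 lies above 0 at 1 nM and below 0 at 10 nM.

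The probes with 2 mismatches gave a readout of each member that the choice of members did not use on its own. None of the 12 higher and none of the 10 lower members had a mismatch probe past the threshold in the same direction. Most of these mismatch probes were below the limit of detection at 1 nM, with 66 for miR-29c, 73 for miR-125b and 77 for miR-16. Background makes the ratios of such dim probes smaller, so the absence of a call among them says little about the matched probes. The mismatch ratios had a median of 0.04 for the higher members, with a range of −0.42 to 0.23, and lay between −0.29 and 0.51 for the lower members. The mismatch probe of miR-16 had a ratio of −0.42 while the matched probe had 0.46, and that of miR-191 had 0.51 while the matched probe had −0.32. Over all 596 mismatch probes with a reading on both arrays, the SD of the ratios was 0.159, and 2.35% were higher and 2.68% lower by the same fold. Among the 39 mismatch probes above the limit on either array, 10 were higher, or 25.6%, and 0 lower, with an SD of 0.258. The shares of the members were 8.96% higher and 7.46% lower, so detected mismatch probes were past the higher threshold more often than the members. On both arrays 72 members were at least 2 times as bright as their mismatch probe, and with ratios centred on these 72 there were 7 higher and 8 lower. The virus and worm probes, named for miRNAs of other organisms, had an SD of 0.153.

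**Figure D4:**
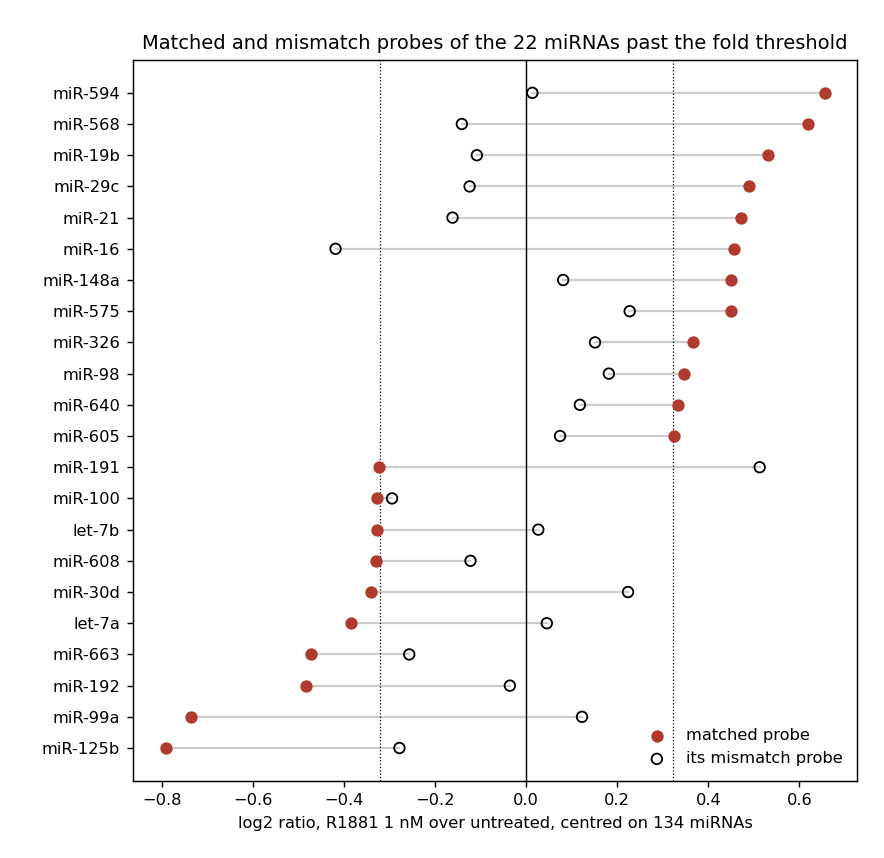
Centred log2 ratio, R1881 1 nM over untreated, of each called member's matched probe and of its 2-mismatch probe, 1 array a side. The matched probes reach 0.66 and −0.79, while the mismatch probes of the higher members lie between −0.42 and 0.23. Most of the mismatch probes were below the limit of detection at 1 nM.

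Rodent-named probes for the same miRNAs formed another readout on the same 2 arrays. There were 23 such pairs, in which miR-20b and miR-346 occur with a mouse and a rat probe each. Of these, 20 matched the sign of their human counterpart, and the SD of the difference was 0.152. Only miR-99a, let-7a and miR-326 of the called members are among the pairs, so the match in sign does not bear on the other calls. Across these probes Pearson's r was 0.82 and Spearman's rho 0.78, a description of probes that share both arrays and the centring. The rodent miR-99a probe read 251.25 at 1 nM and 317.75 in untreated cells, a ratio of −0.48. The rodent let-7a probe had a ratio of −0.15, within the threshold that the human probe passed. The rodent let-7f probe had 0.13, so the order of the human pair was kept while the gap was smaller. The rodent miR-326 probe had a ratio of 0.34. miR-485-3p differed in sign, with 0.29 for the rodent probe and −0.23 for the human one.

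**Figure D5:**
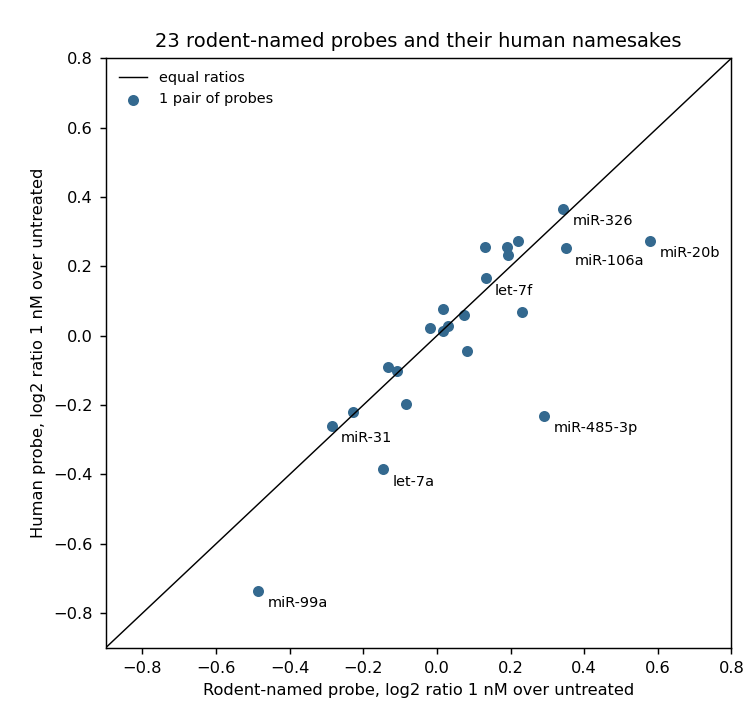
Centred log2 ratios, R1881 1 nM over untreated, of rodent-named probes (horizontal) and of the human probe of the same miRNA (vertical), 23 pairs on the same 2 arrays. Most points lie near the diagonal, and 3 pairs differ in sign.

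The spread of ratios differed with brightness. The SD was 0.19 for the dimmest 45 members, 0.23 for the middle 44 and 0.31 for the brightest 45. The brightest held 6 of the 12 higher and 5 of the 10 lower members. The background that the raw intensities contain makes ratios of dim probes smaller. In the authors' deposited table, from which 1 constant per array had been subtracted, 74 members had values on both arrays. Its ratios, centred on those members, were −1.06 for miR-125b, −0.93 for miR-99a, 0.83 for miR-594, 0.65 for miR-19b, 0.63 for miR-29c and 0.48 for miR-21. All 7 higher and all 8 lower members listed there kept their sign. GC content was spread widely among all called members with a sequence. Its median was 40.0% for the 10 higher members with a sequence, range 25 to 70%. It was 50% for 9 lower members, range 36.4 to 90.9%, beside 47.6% for all 117. Among members above the limit on both arrays, the median was 36.4% for 7 higher members, range 25 to 45.5%. There it was 50% for 8 lower members, range 36.4 to 90.9%, beside 45.5% for all 98.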

How the data were processed

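Total RNA of LAPC-4 cells was hybridised to 4 single-colour arrays, 1 a dose. The authors deposited 1 mean spot intensity per probe, per the file headers. Scanner and spot filters are not stated in these sources. There were 1406 probes on an array, 455 of them for human miRNAs, fewer than the labels give. A second table the authors deposited holds the same intensity minus 1 constant per array, 87 at 1 nM and 84.5 untreated, at probes at least 2 times that constant. Its column medians are 260.5 untreated, 226.25 at 0.1 nM, 269 at 1 nM and 213.5 at 10 nM.

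Intensities were taken to log2 without background correction, and ratios were centred on the median of 134 members. Alternatives used normexp, quantile and cyclic loess scaling (R 4.3.3, limma 3.58.1), and Python 3.11.15 gave the rest. The steps were tested on simulated data with changes larger than most ratios here, so calls near the threshold were not tested. Members and all 28 lists (17 families, 2 androgen lists, 9 marker lists) were chosen with earlier results of these data known. Named miRNAs were the 12 highest and 12 lowest above both limits, those with a bound of at least 1.1, up to 4 a list, the 5 brightest and 6 fixed ones. Others, such as let-7d, let-7f, miR-194 and miR-215, were chosen after their values were seen. Arms of miRNAs were assigned to RefSeq names by hand.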

Additional observations from a re-analysis of the deposited data

Results flagged for a closer look

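Rodent-named probes without a human probe of the same name were outside the main comparison, yet 18 of 124 read above the limit on both arrays. The brightest, miR-709, read 650.25 at 1 nM and 394.5 in untreated cells, a ratio of 0.57. miR-713 read 269.25 at 1 nM and 154 in untreated cells, a ratio of 0.66, the highest of the 18. The lowest was miR-467a at −0.43. What these probes bound in human RNA was not tested.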

How the results depend on the processing

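No paired analysis was possible because each group has 1 array. Without centring there were 26 higher and 4 lower members, a split of 86.7% higher against 54.5% in the report, and with each array divided by its median over all probes 24 and 4, or 85.7%. Quantile normalization gave 14 higher and 18 lower, 43.8% higher, and normexp with centring gave 14 and 16. Subtracting the mismatch median gave 25 higher and 35 lower, 41.7% higher, with an SD of 0.451. A limit at the 90th percentile gave 19 higher and 6 lower, no detection filter 28 and 4, and members at least 2 times their mismatch probe gave 7 higher. A 1.2-fold threshold gave 19 higher and 18 lower, and a 1.5-fold threshold 2 and 2. Family and androgen lists with a median above 0 numbered 6 in the report, 15 without centring, 14 with the all-probe median, 10 at the 90th percentile and 15 without a filter. Of the single miRNA ratios, 43 moved and 878 did not, and of the other values 33 moved and 306 did not. A ratio or list median counted as moved if it changed by at least 0.152, the SD between rodent and human probes. Counts and spreads counted as moved if they changed by more than 1.5-fold. Dropping the centring shifts every ratio by 0.146, so no ratio or list median could count as moved there, even where its sign changed. These tallies are therefore no measure of stability.

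Over 6 other scalings, 11 of the 12 higher members stayed past the threshold in all, the exception being miR-16 at 0.30 with cyclic loess. Of the 10 lower members 4 did: miR-125b between −1.11 and −0.65, miR-99a between −0.98 and −0.59, miR-192 between −0.83 and −0.34, and miR-663 at −0.33 or lower. Without centring and with the all-probe median every ratio is raised by a constant, which can take calls only from the lower members. With quantile normalization miR-191, the brightest member on both arrays, had a ratio of 0.00. That scaling gives probes of equal rank on the 2 arrays the same value, so this ratio says nothing about its call. The cause of the other changes was not tested. Readings close to the limits of 137.35 at 1 nM and 117.925 untreated carry the least signal over background.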

Other observations

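Control probes outside the miRNA set differed in both directions between the arrays. A positive control probe for glycine transfer RNA read 396.5 at 1 nM and 240 in untreated cells, a ratio of 0.58, and another probe named for the same positions read 151.75 at 1 nM and 102.5 in untreated cells, a ratio of 0.42. Probes for other stretches of this transfer RNA were near background, with ratios of −0.13 and −0.32. The U6 small nuclear RNA probe was near background, at 76.75 at 1 nM and 87.5 in untreated cells. Of the spike probes, Bio B read 525.5 at 1 nM and 362.25 in untreated cells, a ratio of 0.39, and Bio C read 609 at 1 nM and 528.5 in untreated cells, a ratio of 0.06. The 5 Lambda spike probes, most of them near background, had ratios between −0.37 and −0.11.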
